A study of Sus scrofa with 32 samples.

Results

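The regions described here are gene-end stretches of the pig genome that carried acetylated histone H3 lysine 27 (H3K27ac) after 60 h of muscle differentiation and not before it. Peaks of the 8 H3K27ac lists were merged wherever they shared at least 1 bp, which gave 38762 regions on placed chromosomes, 11495 of them within 2.5 kb of either end of a protein-coding gene (build Sscrofa11.1). Of these gene-end regions, 3332 (29.0%) had a peak in both untreated 60 h libraries and in neither untreated 0 h library, and are called gained. The regions were thus chosen by H3K27ac in WT_60h and WT_0h cells, and its values there are given as a description, with no test. The gene table holds no strand, so the end at which a gene starts was not told from the end at which it stops.

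The assay was CUT&Tag, which cuts and tags DNA beside an antibody-bound histone mark, in cells labelled as porcine muscle satellite cells, the resident stem cells of skeletal muscle. The groups were CBP_60h (cells given SGC-CBP30 for 60 h in differentiation), WT_60h (untreated cells at 60 h of differentiation), CBP_0h (cells given SGC-CBP30 for 48 h in proliferation, taken at 0 h) and WT_0h (untreated cells at 0 h), with 2 libraries each for H3K27ac, for H3K4me3 and for H3K27me3. The dose is labelled as 5, and what its unit of uM/ml stands for is unclear. No allele was changed: WT stands for untreated cells and CBP for inhibitor-treated ones. Other label fields name C3H cells and call the 60 h samples proliferating, so titles gave the time and the cell type field the cells. Nothing says that replicates are separate cultures, so every p-value measures the spread between libraries only.

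CBP and p300 are related acetyltransferases that place H3K27ac at active enhancers and promoters, and SGC-CBP30 is a small molecule that occupies their bromodomains, the pockets that read acetylated lysine. H3K4me3 is a mark of active or poised promoters and H3K27me3 is the mark of Polycomb silencing. When satellite cells leave the cell cycle, MYOD1 and MYOG, factors that bind E-box DNA together with MEF2 proteins, switch on the genes of the contractile apparatus, of calcium release and of the neuromuscular synapse.

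All values are lengths and counts from peak lists, and the depth behind the lists is unknown. H3K27ac lists on placed chromosomes held 13698 and 16939 peaks in CBP_60h, 21556 and 23278 in WT_60h, 8947 and 10940 in CBP_0h and 17276 and 19451 in WT_0h, so that the treated lists were shorter at both times. H3K4me3 lists were of more equal length, between 14668 and 17101 peaks. All 6 measured markers of differentiating myocytes (MYOG, MYMK, ACTA1, ACTC1, TNNT2 and CKM) had H3K4me3 in all CBP_60h and WT_60h libraries and in no CBP_0h or WT_0h library. Their summed H3K4me3 length was 15299 and 15320 bp in the CBP_60h libraries and 21579 and 21732 bp in the WT_60h libraries. Markers of endothelium (PECAM1, CDH5, KDR) and of Schwann cells (SOX10), and the defining markers ADIPOQ, FABP4, CSF1R and PTPRC, had no H3K4me3 in any library, whereas CD68 of the macrophage list and PPARG of the adipocyte list had it in every library. CD68 had 4076 and 4259 bp in CBP_60h, 4711 and 4945 bp in WT_60h, 3154 and 3389 bp in CBP_0h and 3435 and 3607 bp in WT_0h, and PPARG had 914 to 1358 bp over all libraries. All 4 fibroblast markers (PDGFRA, COL1A1, COL1A2, THY1) had H3K4me3 in every library, with sums of 11380 to 11556 bp in CBP_60h, 10521 to 10867 bp in WT_60h, 6596 to 6668 bp in CBP_0h and 10186 to 10232 bp in WT_0h. The share of fibroblasts in the cultures, and its part in the results, was not tested.

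The gained regions were short and moderate in strength. Merged regions were 295 to 4747 bp long, with a median of 770 bp. The length under peaks in WT_60h had a median of 631.5 bp, against 1095.25 bp at the 2896 gene-end regions that had a peak in all WT libraries and are called held. The median −log10 q, a peak caller's value for the strength of evidence, was 6.44 at gained regions and 11.2 at held regions. A gene end lay inside 38.3% of the gained and 58.8% of the held regions, and the midpoint lay within a gene in 74.5% of the gained regions. At the edge of the rule, 183 gained regions had a −log10 q under 2 in at least 1 WT_60h library, and 1630 gene-end regions with a peak in 1 WT_60h and no WT_0h library stayed outside, with a median of 3.55. The 154 gained regions over 2 kb from a gene end had a median length of 560 bp in WT_60h, against 587.75 bp at the 138 regions up to 3 kb away that fell outside the distance.

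Gained regions lay near 3505 of 19550 protein-coding genes (17.9%). Most of these genes, 2935, had 1 gained region, 483 had 2 and 87 had 3 or more. A gained region stood at both ends of 405 genes. The distance rule tied 2554 regions to 1 gene, 721 to 2 genes and 57 to at least 3, so a region named for a pair of neighbours belongs to neither alone. Among the genes with 3 were ACTC1, which encodes the actin of heart and embryonic skeletal muscle, ANKRD1, a stress-responsive protein of the sarcomere, DMPK, the kinase gene of myotonic dystrophy, BGN, which encodes the matrix proteoglycan biglycan, and ILK, the integrin-linked kinase.

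With the inhibitor present, most of the gained regions lacked H3K27ac at 60 h in at least 1 library, and about as many lacked it in both as had it in any. Peaks were listed at 1484 (44.5%) and 979 (29.4%) of the 3332 regions in the CBP_60h libraries, against 189 (5.67%) and 123 (3.69%) in the CBP_0h libraries. The mean share was 37.0% ± 10.7 in CBP_60h and 4.68% ± 1.40 in CBP_0h (SD, n = 2 each), with no overlap between the groups. An exact permutation test gave p = 0.33 (two-sided), the smallest that 2 libraries against 2 can give. The rule required absence in WT_0h, and 93.6% of the gained regions had no peak in either CBP_0h library, against 47.6% of the held regions. The low share in CBP_0h may thus follow in part from the choice of regions. Region by region, 857 (25.7%) had a peak in both CBP_60h libraries, 749 (22.5%) in 1 and 1726 (51.8%) in neither. The last share was 70.6% without the first CBP_60h library and 55.5% without the second. It was 40.5% when all lists were cut to the same number of peaks.

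**Figure D1:**
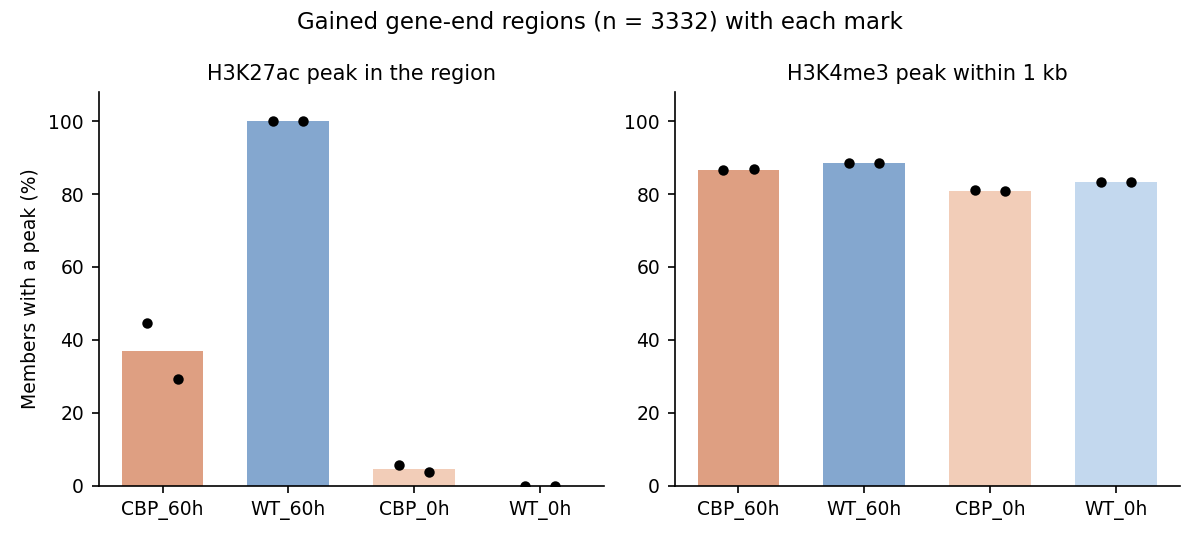
Share of the 3332 gained gene-end regions with an H3K27ac peak in the region (left) and an H3K4me3 peak within 1 kb (right), in percent. Bars are means of 2 libraries and points are the libraries. H3K27ac was at 44.5% and 29.4% in CBP_60h and, by the rule that chose the regions, at 100% in WT_60h and 0% in WT_0h, while H3K4me3 lay between 80.8% and 88.6% in every library.

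Held regions had the mark more often, and 24.4% of them had no H3K27ac in either CBP_60h library. Gained regions were also shorter, so the shares are given by length. Among regions under 500 bp in WT_60h, 67.6% of the gained and 60.5% of the held had no peak in CBP_60h, and among those of 2000 bp or more the shares were 16.4% and 2.68%. Between these sizes the gained regions again stood above the held ones, with 52.4% against 34.9% from 500 to under 1000 bp and 26.7% against 15.9% from 1000 to under 2000 bp. Because the rule required absence in WT_0h, these differences are descriptions and carry no test. The 5145 gained regions away from gene ends were close to those at gene ends, with 49.9% in neither CBP_60h library. Over all gene-end regions with a peak in both WT_60h libraries the share was 38.7%.

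**Figure D2:**
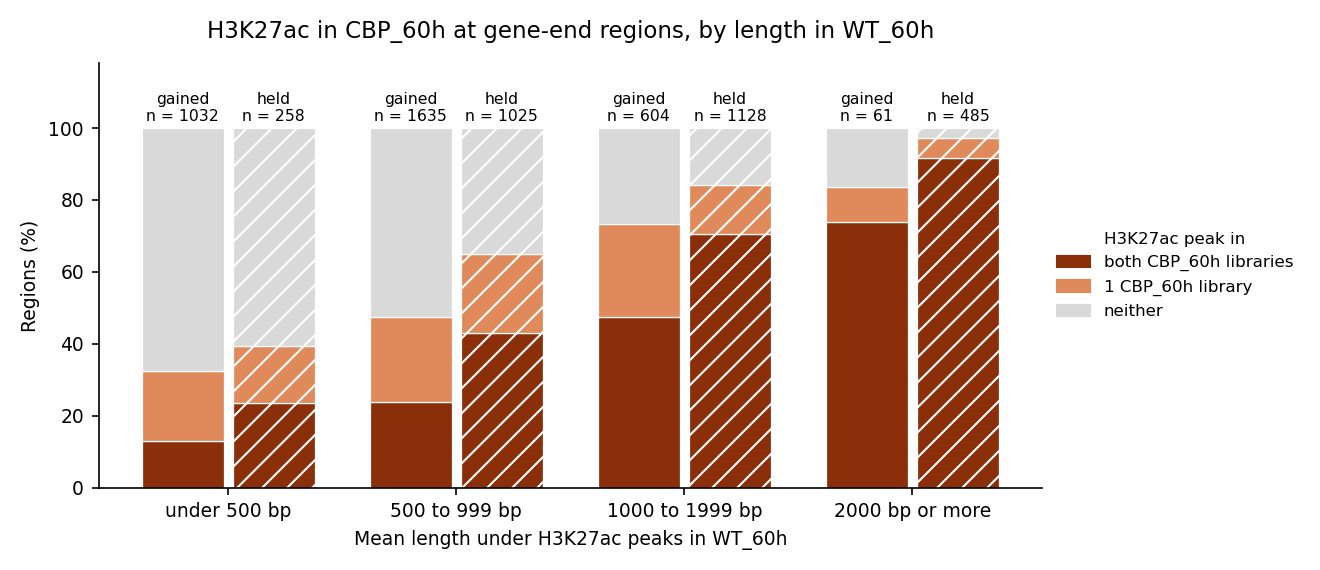
H3K27ac in CBP_60h at gained (plain) and held (hatched) gene-end regions, in percent of regions, by the mean length under H3K27ac peaks in WT_60h. Colours give the number of CBP_60h libraries with a peak. The share with none was larger at shorter regions, and larger at gained than at held regions in each class of length, from 67.6% against 60.5% under 500 bp to 16.4% against 2.68% at 2000 bp or more.

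CBP_60h against CBP_0h was not part of the rule and was tested. As labelled, these are separate exposures, 48 h in proliferation and 60 h in differentiation. CBP_0h is not labelled as the start of the CBP_60h cells, so the comparison is no time course in the same treated cells. In a limma fit over all regions, on the log2 of the listed length plus 500 bp, 784 gained regions (23.5%) had a longer H3K27ac length in CBP_60h than in CBP_0h at a Benjamini-Hochberg adjusted p below 0.05, and 29 (0.87%) a shorter one. Over all 28541 regions tested the shares were 22.4% longer and 11.6% shorter, so the longer calls were near the background and the shorter calls below it. In this fit a region with no peak in either CBP_0h library, as at 93.6% of the gained regions, cannot be called shorter. The low count of shorter calls is therefore no result about these regions. WT_0h, at 0 by the rule, adds no spread to the fit. All 3332 gained regions entered this test through their WT_60h lengths. Without the second CBP_60h library 1326 were longer, and without the second CBP_0h library 58 were shorter. Scaling every library to the same distribution of values gave 756 longer and 203 shorter. Of the 764 gained regions with a peak in both CBP_60h and neither CBP_0h library, 750 were called.

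Several of the longest regions so called kept a length in CBP_60h near that in WT_60h. At BAHCC1 (chr12:1406943-1410259), a gene for a chromatin reader, H3K27ac covered 3125 and 3174 bp in CBP_60h, against none in CBP_0h, and 3184 and 3187 bp in WT_60h. MEOX2 (chr9:85009042-85011869), a homeobox gene of muscle precursors, had 2244 and 2439 bp in CBP_60h and none in CBP_0h, beside 2666 and 2244 bp in WT_60h. EBF1 (chr16:64359877-64363151), an early B-cell factor family gene, had 3120 and 2921 bp in CBP_60h and none in CBP_0h, beside 2512 and 2879 bp in WT_60h. The adjusted p for CBP_60h against CBP_0h was 3.0e-05 at BAHCC1, 4.8e-05 at MEOX2 and 3.1e-05 at EBF1 (limma). CBP_0h and WT_0h were both at 0 there and added no spread. Nearly all regions listed in both CBP_60h and neither CBP_0h library were called, so these p-values add little to the listing itself. The same holds at RBMS1 and ACTN1, and at ACTC1, CHRNG and COL3A1 below. RBMS1, which encodes an RNA-binding protein, had 2864 and 2255 bp in CBP_60h against none in CBP_0h (adjusted p = 7.1e-05). ACTN1, the non-muscle alpha-actinin gene and the longest gained region of those named, had 2407 and 1774 bp in CBP_60h against none in CBP_0h (adjusted p = 0.00017), beside 4468 and 4009 bp in WT_60h. MEOX2 and ACTN1 were no longer called when all lists were cut to the same length. The regions that went the other way were short: at ABCC2, a transporter gene, H3K27ac covered none in CBP_60h, against 599 and 522 bp in CBP_0h (adjusted p = 0.00099), and the call was lost when peaks with a −log10 q under 5 were left out.

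H3K4me3 was mostly there already. Within 1 kb of the region it was listed at 2946 and 2952 gained regions in the WT_60h libraries and at 2779 and 2772 in the WT_0h libraries. By its presence in untreated cells, 2743 regions (82.3%) had H3K4me3 in all WT libraries, 153 (4.59%) in both WT_60h and neither WT_0h library, 354 (10.6%) in none, and 82 in another combination. The share with H3K4me3 in both WT_0h libraries was 82.6% at gained regions, 90.8% at held regions and 12.2% at gained regions away from gene ends. H3K27me3 was listed at few gained regions, with 9 and 5 in CBP_60h, 8 and 5 in WT_60h, 39 and 18 in CBP_0h and 0 and 4 in WT_0h. Its lists differed greatly in length, with 13009 and 12090 peaks in CBP_60h, 8759 and 6074 in WT_60h, 18963 and 14462 in CBP_0h and 1320 and 2614 in WT_0h. The share over all regions was not computed, so differences between groups are not read as a trait of the gained regions.

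The H3K4me3 libraries did not take part in choosing the regions, although they came from the same groups of cells. Of the 3332 gained regions, 2958 had at least 200 bp of H3K4me3 in at least 2 libraries and were tested in the H3K4me3 fit. H3K4me3 was longer in WT_60h than in WT_0h at 1449 (49.0%) and shorter at 39 (1.32%), where the shares over all 13418 regions tested were 40.2% and 5.79%. The median change was 0.19 on the log2 scale, against 0.14 over all regions. The balance depended on the scaling: with every library set to the same distribution, which moved the median of all regions to −0.05, 642 were longer and 636 shorter. Without the first WT_60h library 902 were longer, and without the second 24 were shorter. A region with H3K4me3 at 60 h alone passes the filter through the group in which it is high, so these counts describe the tested regions and not all gained regions.

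Of the 153 regions with H3K4me3 at 60 h alone, 43 stood at genes of 8 muscle lists, which hold 128 of the 3332 gained regions. They lay, among other places, at MYOG, MYOD1, MEF2C and SMYD1 among the regulators, at ACTC1, MYL2, MYOM1, MYOZ2, NEB, TNNC1, TNNI1, TNNI2, TNNT3, TPM3 and TTN among the sarcomere genes, at CASQ2, CAV3, JSRP1, SCN4A, SRL, TRDN and TRIM72 among the genes of the membrane and calcium stores, at CHRND and CHRNG among the acetylcholine receptor subunits, and at CKM and GYS1 in energy metabolism. The class belongs to the window and not to the gene, and a gene can have several regions in overlapping windows. Outside its window of this class, MYOD1 had 1134 and 857 bp of H3K4me3 in the WT_0h libraries. Another gained region of CHRNG had a mean of 0.343 kb in WT_0h. H3K27ac was in neither CBP_60h library at 96 of the 153 (62.7%), against 50.1% of the regions with H3K4me3 at both times and 57.1% of those with none. H3K4me3 was in both CBP_60h libraries at 82, in 1 at 17 and in neither at 54. Both marks were missing from both CBP_60h libraries at 39, both were present in both at 22, H3K4me3 stood in both without any H3K27ac at 43, and H3K27ac stood in both without any H3K4me3 at 11.

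Genes of myogenic factors and their partners differed in what they carried in CBP_60h. MYOG, the gene of the factor that commits myoblasts to differentiate, had its longer gained region at chr9:113782829-113785729, over the end of the gene. H3K27ac there covered 709 and 1099 bp in CBP_60h and 2740 and 2901 bp in WT_60h, and none at 0 h in either treatment. H3K4me3 covered 2617 and 2727 bp in CBP_60h, against 3686 and 3661 bp in WT_60h, a difference of −0.40 ± 0.04 on the log2 scale (SE, adjusted p = 0.0029, limma). For H3K4me3 the CBP_60h libraries were lower and did not overlap WT_60h. No H3K4me3 was listed there at 0 h in either treatment, so the 0 h groups added no spread. The SE and p-value are therefore likely too small. The same holds for those of H3K4me3 at MYOD1, TTN, ACTC1, CHRND, TNNI1 and SRL below. MEF2C, which encodes a partner of the MYOD family, had gained regions at chr2:96293788-96294553, chr2:96295459-96295949 and chr2:96296530-96297298, and H3K27ac was listed at none of them in CBP_60h, against 397 to 746 bp in WT_60h. H3K4me3 there was listed at 0 in CBP_60h and at 1440 to 2413 bp in WT_60h. No other group had H3K4me3 there, so these regions entered the fit through WT_60h alone and their values are given with no test, as are those of every region below that entered in this way. These neighbouring windows overlap, so the MEF2C regions are not independent of each other.

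MYF6, of the same family as MYOD1 and MYOG, had no H3K27ac in CBP_60h, against 1849 and 1562 bp in WT_60h at chr5:100763756-100765604, and no H3K4me3 in CBP_60h, against 897 and 846 bp in WT_60h, the group through which it entered the fit. MYOD1, already active in myoblasts, had a short gained region 867 bp from a gene end at chr2:41425103-41425937. It held no H3K27ac in CBP_60h, against 615 and 432 bp in WT_60h, and its H3K4me3 was 690 and 565 bp in CBP_60h, against 997 and 1155 bp in WT_60h (adjusted p = 0.018, limma, lost without either WT_60h library, without the second CBP_60h library and with the other scaling). NFIX, a nuclear factor I gene, had 478 and 464 bp of H3K27ac in CBP_60h and 458 and 297 bp in WT_60h, so the mark was no shorter in treated cells. Among all 38 genes listed as myogenic factors and their partners, 15 (39.5%) had a gained region. Of the 22 regions at these genes, 13 had no H3K27ac in either CBP_60h library and 4 had it in both. H3K4me3 was shorter in CBP_60h than in WT_60h at 8 of 21 tested, 4 of which entered the fit through WT_60h alone, and longer at 1, NFIX. The MEF2C regions and both MYOG regions, whose windows overlap within each gene, are among the 8, so these counts are not of independent regions. The shares over all regions tested were 8.88% shorter and 6.1% longer.

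Sarcomere genes showed every combination of the marks. TTN, which encodes the molecular spring titin, had no H3K27ac in CBP_60h, against 1129 and 1635 bp in WT_60h at chr15:84500376-84502010. Its H3K4me3 was 425 and 784 bp in CBP_60h, against 2536 and 2594 bp in WT_60h (−1.49 ± 0.15, SE, adjusted p = 0.0025, limma). WT_0h and CBP_0h were both at 0 and added no spread, so this SE and p-value are likely too small. TNNT3, the fast troponin T gene (chr2:1298852-1300859), had neither mark in CBP_60h: H3K27ac was listed at 0 there, against 1982 and 1668 bp in WT_60h, and H3K4me3 was listed at 0 in CBP_60h, against 2265 and 2299 bp in WT_60h. LDB3, whose product sits at the Z disc, and its neighbour OPN4 shared a region at chr14:87659905-87662604 that kept H3K27ac without H3K4me3. H3K27ac there covered 1610 and 1444 bp in CBP_60h and 1430 and 2267 bp in WT_60h, with overlap between the groups, while H3K4me3 was listed at 0 in CBP_60h and at 1325 and 1329 bp in WT_60h. C14H10orf71 (chr14:89891503-89893053) was the like case, with 1220 and 860 bp of H3K27ac in CBP_60h and 1413 and 1433 bp in WT_60h, and H3K4me3 listed at 0 in CBP_60h and at 1986 and 1970 bp in WT_60h. At TNNT3, LDB3 and C14H10orf71, WT_60h was the only group with H3K4me3.

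ACTC1 went the other way, though not at all of its regions. Its longest gained region, at chr1:136283098-136285720, held 2623 and 2451 bp of H3K27ac in CBP_60h, above the 1586 and 1430 bp in WT_60h, and none in CBP_0h (adjusted p = 3.0e-05 for CBP_60h against CBP_0h, limma). H3K4me3 in the same window was 3623 and 3629 bp in CBP_60h, against 4623 and 4623 bp in WT_60h (−0.31 ± 0.04, SE, adjusted p = 0.0034). The WT_60h value fills the whole window, and the call was lost without either WT_60h library and in windows that were not extended. At the next ACTC1 region, chr1:136281521-136282737, H3K4me3 was 2949 and 2875 bp in CBP_60h and 2820 and 2921 bp in WT_60h, with overlap. H3K27ac there was 925 and 854 bp in CBP_60h and 1207 and 852 bp in WT_60h, also with overlap. The shortest ACTC1 region had 769 bp of H3K27ac in 1 CBP_60h library, against 434 and 727 bp in WT_60h. TPM2, a tropomyosin gene, also kept its mark, with 2247 and 1674 bp of H3K27ac in CBP_60h and 2467 and 2290 bp in WT_60h at chr1:236407870-236410336, and its H3K4me3 filled the window in CBP_60h and WT_60h alike. TNNI1, the slow troponin I gene, had H3K27ac in 1 CBP_60h library (1005 bp), against 1498 and 1550 bp in WT_60h, and H3K4me3 of 2846 and 3247 bp in CBP_60h and 3406 and 3347 bp in WT_60h (−0.13 ± 0.06, SE, adjusted p = 0.27).

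Of 56 contractile and sarcomere genes, 21 (37.5%) had a gained region, 32 regions in all. Of these, 11 kept H3K27ac in both CBP_60h libraries, 8 in 1 and 13 in neither. H3K4me3 was longer in WT_60h than in WT_0h at 26 of 28 tested, and at 25 with the other scaling, with a median of 1.90 on the log2 scale, where 40.2% of all regions tested were longer. In CBP_60h it was shorter than in WT_60h at 14 of the 28 (17 at an unadjusted p below 0.05, limma) and longer at 0 by either p, with a median of −0.38, beside 0.00 over all gained regions tested and 8.88% shorter and 6.1% longer over all regions. The other scaling gave 16 shorter and 0 longer. Of the 28 tested, 8 entered the fit through WT_60h alone, and these 8 are among both the 26 and the 14. By presence, 20 of the 32 regions had H3K4me3 in both WT_60h libraries and in neither WT_0h library. Such regions could not be called shorter with time, so the 26 is given as a description. ACTC1, TNNC1, TNNI1 and MYOZ2 each gave several regions with overlapping windows, so these counts are not of independent regions.

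**Figure D3:**
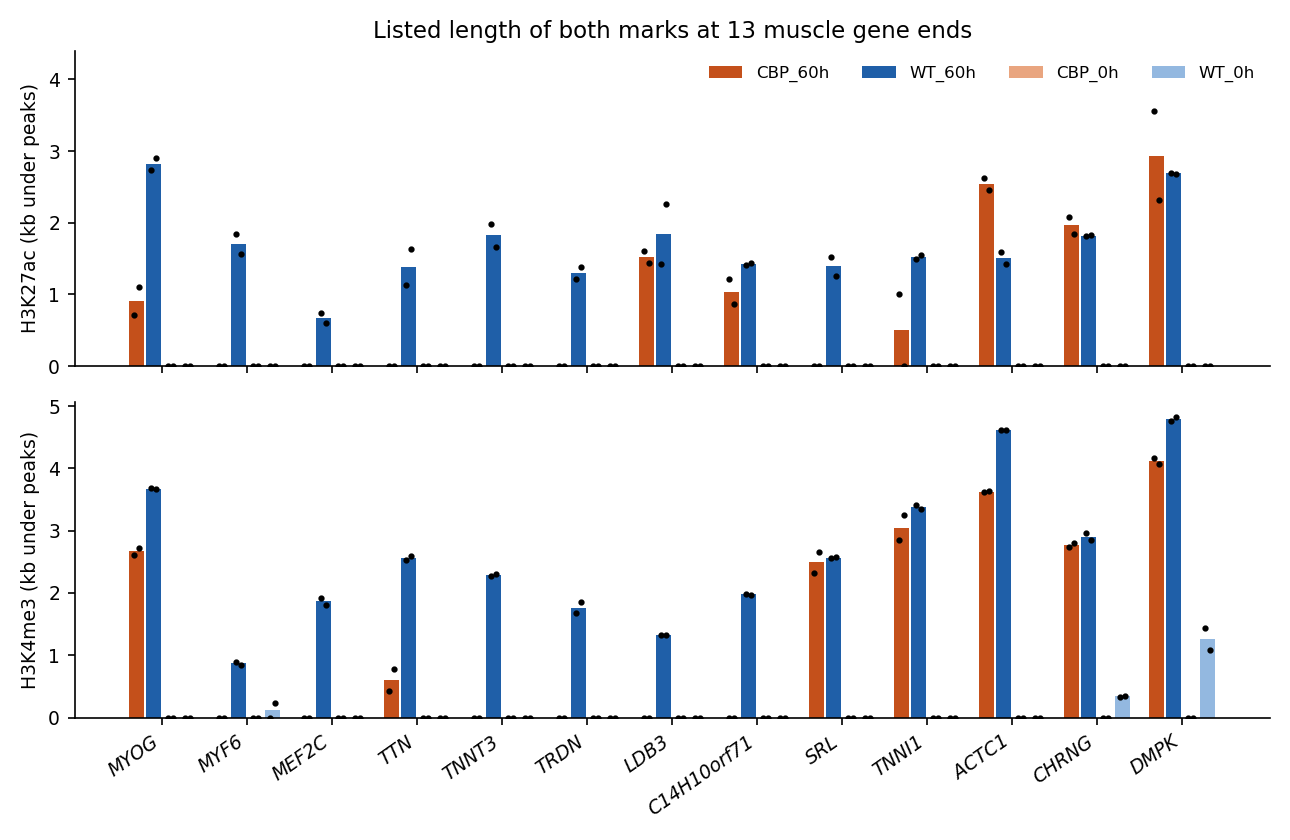
Length under H3K27ac peaks in the region (top) and under H3K4me3 peaks within 1 kb of it (bottom), in kb, at the longest gained region of each of 13 genes named for muscle or taken by the rule for the largest differences. Bars are means of 2 libraries and points are the libraries. CBP_60h stood at 0 for both marks at MYF6, MEF2C, TNNT3 and TRDN, at 0 for H3K4me3 alone at LDB3 and C14H10orf71, and at 0 for H3K27ac alone at TTN and SRL.

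Genes of calcium handling were likewise divided. TRDN, whose product triadin anchors the calcium release channel, had 2 gained regions, at chr1:39180554-39181355 and chr1:39181878-39183262, with no H3K27ac in CBP_60h and 775 to 1385 bp in WT_60h. H3K4me3 there was listed at 0 in CBP_60h and at 1564 to 1851 bp in WT_60h, in overlapping windows, and in no other group. SRL, which encodes the calcium-binding sarcalumenin, had no H3K27ac in CBP_60h either, against 1521 and 1260 bp in WT_60h at chr3:38073266-38074792. Its H3K4me3 was 2321 and 2662 bp in CBP_60h and 2563 and 2575 bp in WT_60h (−0.04 ± 0.07, SE, adjusted p = 0.81), so the libraries overlapped. CASQ2, the calsequestrin gene, kept both marks, with 1019 and 645 bp of H3K27ac in CBP_60h, 671 and 580 bp in WT_60h, and 1599 and 1669 bp of H3K4me3 in CBP_60h, beside 1626 and 1649 bp in WT_60h. Of 28 genes of excitation-contraction coupling, 12 (42.9%) had a gained region. H3K4me3 was longer in WT_60h than in WT_0h at 12 of their 14 regions, with either scaling. It was shorter in CBP_60h than in WT_60h at 5 (6 at an unadjusted p below 0.05) and longer at 0 by either p. Over all regions 40.2% were longer with time, and 8.88% were shorter and 6.1% longer in CBP_60h. Of the 14 regions, 2 entered through WT_60h alone, the overlapping windows of TRDN, and are among both the 12 and the 5. By presence, 8 of the 14 had H3K4me3 in both WT_60h libraries and in neither WT_0h library. These could not be called shorter with time, so the 12 is given as a description.

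The acetylcholine receptor list had a gained region at 8 of 17 genes (47.1%). CHRNG encodes the embryonic subunit of the receptor, and its region at chr15:133051578-133053660 held 2083 and 1846 bp of H3K27ac in CBP_60h, against none in CBP_0h (adjusted p = 3.3e-05, limma), and 1811 and 1831 bp in WT_60h. That call was lost when peaks with a −log10 q under 5 were left out. At another gained region, shared by CHRNG and EIF4E2, H3K27ac was absent from CBP_60h, against 806 and 653 bp in WT_60h. H3K4me3 at that shared region was 0 and 33 bp in CBP_60h and 646 and 425 bp in WT_60h. The neighbouring region of CHRND and PRSS56 held 1145 and 803 bp in CBP_60h and 1557 and 1526 bp in WT_60h. H3K4me3 at the CHRND region was 487 and 985 bp in CBP_60h, against 2173 and 2177 bp in WT_60h (adjusted p = 0.014), a call lost under 5 alternatives, the omission of either WT_60h library among them. CHRNA1, the subunit gene of the toxin-binding site, had H3K27ac in 1 CBP_60h library (672 bp), against 1041 and 1048 bp in WT_60h, and no H3K4me3 within 1 kb.

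Energy metabolism was covered by a pair of lists. Of 35 genes of glycolysis, glycogen and phosphocreatine, 14 had a gained region, and of their 17 regions 1 kept H3K27ac in both CBP_60h libraries, 6 in 1 and 10 in neither. Of the 9 regions at genes of oxidative metabolism and myoglobin, 2 kept it in both, 2 in 1 and 5 in neither, where 25.7% of all gained regions kept it in both. LDHA, the lactate dehydrogenase gene, had none in CBP_60h and 1990 and 1998 bp in WT_60h, and a peak of 636 bp in 1 CBP_0h library. PKM, the pyruvate kinase gene, shared with GRAMD2A a region that held 298 bp in 1 CBP_60h library, against 2165 and 2071 bp in WT_60h. H3K4me3 at the glycolytic regions was shorter in CBP_60h than in WT_60h at 2 of 15 tested (4 at an unadjusted p below 0.05) and longer at 0 by either p, near the 8.88% shorter and 6.1% longer of all regions. The insulin-like growth factor list kept H3K27ac in both CBP_60h libraries at 1 of 10 regions, and the list of acetyltransferases, deacetylases and bromodomain proteins at 1 of 12. In these lists 8 and 10 regions had none, against 51.8% of all gained regions. FOXO1, a transcription factor gene restrained by insulin signalling, had no H3K27ac in CBP_60h and 2053 and 1875 bp in WT_60h at chr11:15410555-15412622. EP300, which encodes p300 itself, had none in CBP_60h and 906 and 947 bp in WT_60h at chr5:7394135-7395095, where H3K4me3 was 2061 and 2064 bp in CBP_60h and 1928 and 2103 bp in WT_60h, with overlap.

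Matrix and membrane genes were divided. BGN had 3 gained regions on chromosome X, the longest at chrX:124282248-124284427, with no H3K27ac in CBP_60h or CBP_0h and 1997 and 1912 bp in WT_60h. SGCA, which encodes a sarcoglycan of the dystrophin complex, had none in CBP_60h and 2078 and 2073 bp in WT_60h at chr12:26356464-26358545. COL3A1, a fibrillar collagen gene, kept 1608 and 1195 bp in CBP_60h, against none in CBP_0h (adjusted p = 0.00068, limma), beside 1858 and 2555 bp in WT_60h. Of 30 genes of the dystrophin complex and costamere, 14 (46.7%) had a gained region, with 8 of 18 regions in both CBP_60h libraries. Their H3K4me3 was called different between CBP_60h and WT_60h at 0 of 16 in the main scaling (limma; 3 at an unadjusted p below 0.05, 1 longer and 2 shorter) and at 1 with the other. Closer to the 17.9% of all genes were cell cycle exit (6 of 24 genes), the S and M phases (8 of 36, 22.2%) and satellite cells and progenitors (5 of 23, 21.7%). Of the lists for other cell types, the endothelial list had a gained region at 0 of 11 genes, and the adipocyte, leukocyte and neural lists at 1 gene each (CEBPB, SPI1 and SYP). The region of SPI1 is shared with MYBPC3, a myosin-binding protein gene. The smooth muscle list had 4 of 9, of which DES also stands in the contractile list. The lists were chosen with earlier results of these data known, so their shares are descriptions.

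**Figure D4:**
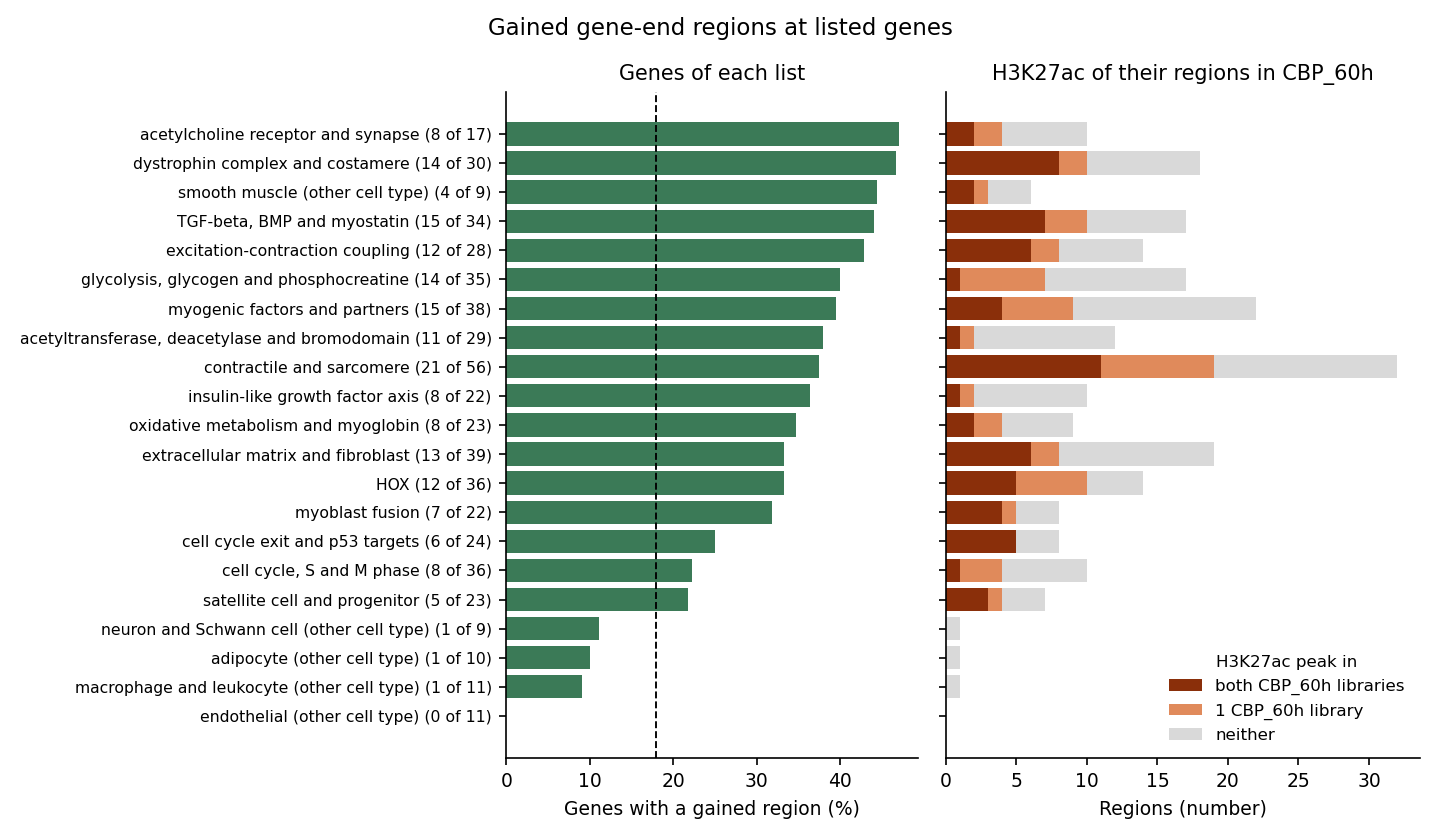
Left, percent of the genes of each list with a gained gene-end region (number with a region of number in the gene table), with the dashed line at 17.9%, the share of all protein-coding genes. Right, number of gained regions at those genes by the number of CBP_60h libraries with an H3K27ac peak. Lists of muscle function lay between 31.8% and 47.1%, and so did those for TGF-beta signalling (44.1%), smooth muscle (44.4%) and HOX genes (33.3%). The lists for extracellular matrix and fibroblasts (33.3%), the insulin-like growth factor axis (36.4%) and acetyltransferases, deacetylases and bromodomain proteins (37.9%) also lay in that range. The endothelial list was at 0.

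HOX genes are transcription factor genes that pattern the body axis. Of 36 genes 12 had a gained region, and H3K4me3 was longer in CBP_60h than in WT_60h at 4 of 14 regions (6 at an unadjusted p below 0.05) and shorter at 0 by either p, or at 5 and 0 with the other scaling, beside 6.1% longer and 8.88% shorter over all regions. Of these 4 calls, that at HOXC11 was lost under 10 of 13 alternatives, and that at HOXC6 with HOXC5 entered the fit through CBP_60h alone. At the region shared by HOXA11 and HOXA10 (chr18:45389868-45391827), H3K4me3 was 2524 and 2448 bp in CBP_60h, against 1846 and 1705 bp in WT_60h (0.39 ± 0.04, SE, adjusted p = 0.0018, limma). H3K27ac there was shorter in CBP_60h, with 1112 and 833 bp in CBP_60h and 1652 and 1741 bp in WT_60h. At the region of HOXC6 and HOXC5, H3K4me3 was 574 and 363 bp in CBP_60h and listed at 0 in every other group. Outside the HOX genes, the shorter of 2 gained regions at GNB1, a G protein beta subunit gene, had 1286 and 1007 bp in CBP_60h and 0 in WT_60h (adjusted p = 0.0018). ZFHX3, a zinc finger homeobox gene, had 1415 and 1055 bp in CBP_60h and 0 in WT_60h (adjusted p = 0.0029), a call lost in windows that were not extended. H3K27ac at both was absent from CBP_60h and present in WT_60h, so the marks differed in opposite directions there.

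Over all 2958 tested gained regions, H3K4me3 in CBP_60h against WT_60h was longer at 116 and shorter at 209, which is 3.92% and 7.07%, beside 6.1% and 8.88% of all regions. Of the 209, 65 entered the fit through WT_60h alone, and of the 116, 9 through CBP_60h alone. The median difference was 0.00. Without the first WT_60h library the counts were 41 longer and 59 shorter, without the second 41 and 76, and without the first or second CBP_60h library 46 and 68 were longer. Most regions thus had H3K4me3 whether or not they had H3K27ac: of the 1726 gained regions with no H3K27ac in either CBP_60h library, 1441 (83.5%) had H3K4me3 in both, against 750 of 857 (87.5%) where H3K27ac was in both. Shorter H3K4me3 was called at 142 of 1511 tested regions (9.40%) with no H3K27ac in CBP_60h, at 28 of 683 (4.10%) with it in 1 library and at 39 of 764 (5.10%) with it in both. These groups were set by H3K27ac in CBP_60h, which is another mark in other libraries, and the difference between them was not tested.

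H3K4me3 was longer in CBP_60h than in CBP_0h at 2272 of the 2958 (76.8%) and shorter at 22 (0.74%), beside 70.5% and 1.45% of all regions. With the other scaling 600 were longer and 896 shorter. Without the second CBP_0h library 14 were shorter, and without the second CBP_60h library 13. The difference of CBP_60h from CBP_0h was larger than that of WT_60h from WT_0h at 770 regions (26.0%) and smaller at 172 (5.81%). This was tested as the difference between the 2 differences (the interaction term), against 30.1% and 6.1% of all regions. CBP_0h and CBP_60h are separate exposures, so it is no change with time in the same treated cells. The other scaling gave 222 and 477, which turns the balance round. Without the second WT_60h library 456 were larger, and without the first or second WT_60h library 62 and 65 were smaller. DMPK with its neighbour DMWD was among the largest: H3K4me3 at chr6:52108132-52111924 was 4163 and 4065 bp in CBP_60h against none in CBP_0h, and 4764 and 4820 bp in WT_60h against 1432 and 1080 bp in WT_0h. The groups at 60 h differed by less there than those at 0 h.

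The X chromosome had a larger share of gained regions than any numbered chromosome. Of its 228 gene-end regions 103 (45.2%) were gained, against 28.7% on chromosomes 1 to 18 as a whole and 21.3 to 32.3% on each of them. Held regions made up 10.5% of gene-end regions on X and 25.5% on the other numbered chromosomes. Away from gene ends, 26.3% of the X regions were gained, against 18.8%. In CBP_60h, 65 of the 103 (63.1%) had no H3K27ac in either library, against 51.4% of the gained regions on chromosomes 1 to 18. The share of a library's H3K27ac peaks that lay on X was 0.998% and 0.840% in CBP_60h, 1.58% and 1.45% in WT_60h, 0.795% and 0.659% in CBP_0h and 1.01% and 0.891% in WT_0h. The share of H3K4me3 peaks on X lay between 3.26% and 3.40% in all libraries. H3K4me3 at the gained X regions was longer in WT_60h than in WT_0h at 59 of 97 tested and shorter at 1. At the gained gene-end regions of chromosomes 1 to 18 it was longer at 1389 of 2859 and shorter at 38. The median change was 0.22 on X and 0.19 on chromosomes 1 to 18. Over all regions tested, 40.2% were longer and 5.79% shorter.

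**Figure D5:**
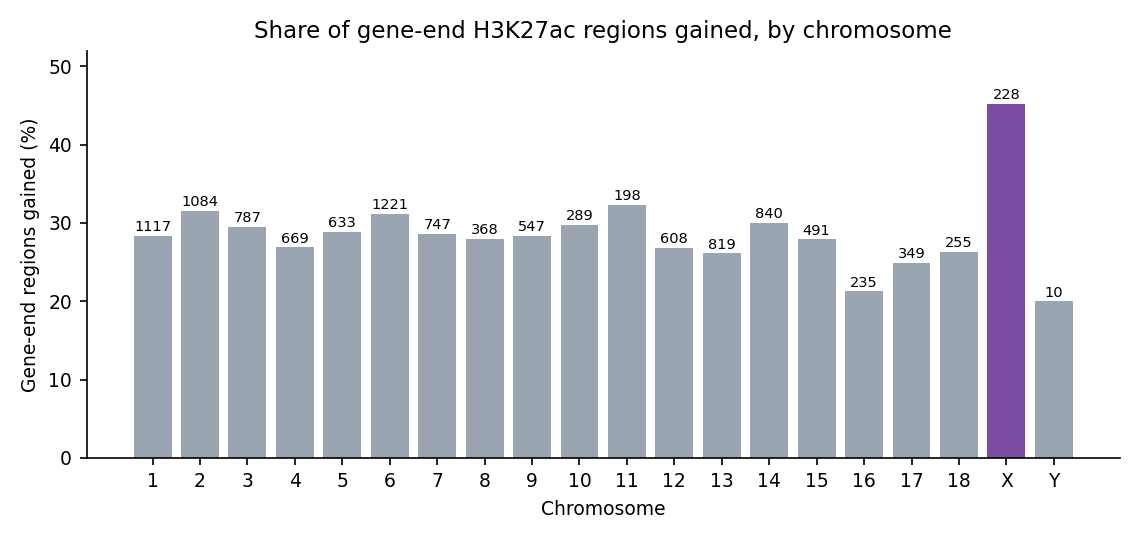
Percent of gene-end H3K27ac regions that were gained between WT_0h and WT_60h, by chromosome. Numbers above the bars are the gene-end regions of the chromosome. The X chromosome stood at 45.2% of 228 regions, and the numbered chromosomes between 21.3% and 32.3%.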

How the data were processed

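CUT&Tag lists of 24 libraries (3 marks, 4 groups, 2 libraries each) were analysed; the 8 IgG samples were not analysed here. Per the submitters' processing notes, Trimmomatic, MACS2 2.1.0 and Sscrofa11.1 were used, while for the aligner, the control library and the depth nothing is given in the sources used here, so precision from depth cannot be stated. As deposited, each peak has a score, a fold ratio over local background, a −log10 p and a −log10 q, all computed by the authors within its own library, and the summit offset. Only positions entered the tests. The −log10 q gave the stricter filter and described peaks, and the −log10 p ranked them for lists of equal length.

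Lengths under peaks were computed with Python 3.11.15 (numpy 2.4.6, pandas 2.3.3) for H3K27ac in the region and for H3K4me3 and H3K27me3 in the region extended by 1 kb. limma 3.58.1 in R 4.3.3 (lmFit, eBayes with trend and robust) was fitted per mark to the log2 of length plus 500 bp over all regions holding 200 bp or more in 2 or more libraries, with 8 libraries and 4 residual degrees of freedom, and Benjamini-Hochberg adjustment over all regions tested. A group listed at 0 adds no spread to the fit. SE and p-values are then likely too small, also in comparisons of the other groups. Where a compared group is listed at 0, the log2 difference depends on the 500 bp. Lengths are given there, in places with a p-value, and log2 values of single regions only among the results flagged below. The fit was tested on simulated data. Named regions are the longest, the 10 largest called changes each way, the longest kept in CBP_60h, and examples of fixed lists and a panel. Regions named for a called change had groups that do not overlap, a condition not applied to the interaction term. SMYD1, CASQ2 and other genes listed by H3K4me3 class were named after their values were seen. Some genes are not reported here, though counts include them. The members, lists and rule were chosen with earlier results of these data known. Gene positions came from the RefSeq table of the same build. Figures used matplotlib 3.10.9.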

Additional observations from a re-analysis of the deposited data

Results flagged for a closer look

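The difference in H3K4me3 length of CBP_60h from CBP_0h was unlike that of WT_60h from WT_0h at the regions named here, which are among the largest each way. The calls are by the interaction term of the limma fit (adjusted p below 0.05). CBP_0h and CBP_60h are separate exposures as labelled, so no change with time in the same treated cells was measured. Values are the difference in CBP minus the difference in WT, on the scale of log2(bp + 500). They depend on the added 500 bp where a group is listed at 0 and are no fold changes. The CBP difference was smaller at TNNT3 with LOC110259216 (−2.48), FXYD7 (−2.42), MEF2C (−2.34, −2.24 and −2.15 in overlapping windows), C14H10orf71 (−2.31), LSMEM1 (−2.21), TRDN (−2.18) and PKMYT1 with PAQR4 (−2.12). At all of these H3K4me3 was listed at 0 in both CBP_60h libraries and was present in both WT_60h libraries. Apart from PKMYT1 with PAQR4, WT_60h was the only group with H3K4me3 there, so these regions entered the fit through the group in which they are high and their calls carry no support. The CBP difference was larger at ZFHX3 (2.84), GNB1 (2.37 and 1.99), IRX1 (1.93), CASZ1 (1.89), SBNO2 (1.86), OLFML2A (1.67), SESN2 (1.65), DMPK with DMWD (1.61) and HDAC11 (1.60). At all of these, mean H3K4me3 was shorter in CBP_0h than in WT_0h. At CASZ1, OLFML2A and DMPK with DMWD it was not longer in CBP_60h than in WT_60h, so the larger difference lay in the 0 h groups. At OLFML2A it was 3.31 kb in WT_60h and 3.17 kb in CBP_60h, against 1.16 kb in WT_0h and 0 in CBP_0h. Only at ZFHX3 and GNB1 was H3K4me3 at 0 in WT_60h and present in CBP_60h. Another gained region of IRX1, not among those named here, had a mean of 1.10 kb in WT_60h and 0 in CBP_60h. Its means at 0 h were 1.51 kb in WT_0h and 0.45 kb in CBP_0h. The call was lost at ZFHX3 and CASZ1 in windows that were not extended, and at IRX1 with a −log10 q of at least 5. At the GNB1 region of 1.99 it was lost under 4 alternatives (quantile scaling, lists of equal length and without either WT_60h library). At SBNO2 it was lost under 6 (quantile scaling, a −log10 q of at least 5, windows not extended, and without the first WT_0h, the second WT_60h or the first CBP_60h library).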

How the results depend on the processing

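Cutting every H3K27ac list to the same number of peaks gave 1903 gained regions and 40.5% of them in neither CBP_60h library. Leaving out 1 WT library gave 3517 to 4416 regions, and leaving out 1 WT or CBP_60h library gave shares of 49.0 to 70.6%. Other settings kept both counts within 1.5 times or 1 SD. For H3K27ac in CBP_60h against CBP_0h, the longer and shorter calls were 334 and 2 with a −log10 q of at least 5. Lists of equal length gave 400 longer, quantile scaling gave 203 shorter, and leaving out a library gave 661 to 1326 longer and 29 to 58 shorter. For H3K4me3 in WT_60h against WT_0h, quantile scaling gave 642 longer and 636 shorter, windows not extended gave 523 and 7, windows of 2.5 kb gave 68 shorter, and leaving out a library gave 902 to 1166 longer and 24 to 38 shorter. For CBP_60h against WT_60h, quantile scaling gave 188 longer, the replicate block 71 longer, windows not extended 16 longer and 110 shorter, windows of 2.5 kb 178 longer, and leaving out a library 41 to 68 longer and 59 to 175 shorter. For CBP_60h against CBP_0h, quantile scaling gave 600 longer and 896 shorter, windows not extended 818 and 6, and leaving out a library 1899 to 2047 longer and 13 to 18 shorter. For the interaction term, quantile scaling gave 222 larger and 477 smaller, windows not extended 365 larger, and leaving out a library 456 to 715 larger and 62 to 155 smaller. The causes were not tested. Of 61 calls at named regions, 36 held under every alternative and 0 turned in sign. Replicate numbers did not pair the libraries (correlations of deviations −0.00837 to 0.0314 for H3K27ac and −0.0279 to 0.0272 for H3K4me3), and the replicate block moved no other count of calls by over 1.5 times.

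A list records presence past a caller's threshold, so a short or weak peak can be missing where signal remains, and depth is unknown. Windows full of H3K4me3 in both WT_0h libraries, 60 of 3332, cannot record a longer length.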
